A study of Homo sapiens with 15 samples.

Results

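A set of 10 regulators of apoptosis and cell survival were followed in THP-1 cells, a human monocytic leukemia cell line, after stimulation with bacterial extracellular vesicles (BEVs). The 10 genes were chosen by symbol, BCL2, BCL2A1, BCL2L1, BCL2L11, MCL1, BAX, BIRC3, XIAP, CFLAR and PMAIP1, out of 60286 genes in the count table. Each matched 1 row, and 10 of 10 were among the 17198 genes that passed the filter on low counts. The 15 RNA-seq libraries came from 5 groups of THP-1 cells, each with 3 libraries and a genotype labelled WT. The negative control (NC) received PBS. EUC and EPL cells received 1 μg/mL BEVs of *E. coli*, isolated by ultracentrifugation (UC) or by precipitation with epsilon-poly-L-lysine (PL). SUC and SPL cells received 10 μg/mL BEVs of *S. aureus*, isolated by UC or PL. Species and dose thus changed together and cannot be told apart. The methods of the study give an incubation of 6 h, whereas the labels give Day 0. All groups are 1 cell line, and the labels do not say whether the 3 libraries of a group came from separate cultures, so p-values measure the spread between these libraries only.

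Apoptosis through mitochondria is set by proteins of the BCL2 family. The anti-apoptotic members BCL2, BCL2A1, BCL2L1 and MCL1 hold back the pore former BAX, and the BH3-only members BCL2L11 and PMAIP1 counter them. Downstream, XIAP inhibits caspases directly, BIRC3 is a ubiquitin ligase at the tumor necrosis factor receptor, and CFLAR is the regulator of caspase 8 at death receptors. In monocytes, ligands of Toll-like receptors activate NF-kappa B, of which BCL2A1, BIRC3 and CFLAR are known targets. Several of these genes, BCL2L1, BCL2L11, MCL1 and CFLAR among them, give splice forms with different or opposite functions, which counts per gene do not separate.

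Between 14399421 and 16637345 reads were counted per library. The 11 monocytic markers summed to between 4075 and 6559 CPM (read counts scaled to a common library size) in the 15 libraries, although CD68 and FCN1 were near 0 in every group and CD14 had a mean of 3.77 CPM in NC. AZU1 alone held group means of 2795 to 3355 CPM of that sum, and single markers differed between groups, with SPI1 at 471 CPM in NC and 960.3 to 1198 in the stimulated groups, CD14 at 7.01 to 8.88 in the stimulated groups, and MPO at 10.2 in NC and 3.38 to 4.21 in the stimulated groups. Of 15 markers of T, B, epithelial, fibroblast, erythroid and endothelial cells, CD3D, HBB and HBA1 were at 0 in all 15 libraries, and the 15 summed to between 4.49 and 9.37 CPM. The libraries EUC3, EPL1 and SUC3 stood apart from the rest of their groups. Short genes (total exon length up to 3149 bases) lay above long genes (from 6302 bases) by 0.244, 0.195 and 0.203 log2 units in these libraries, relative to their group means, against -0.172 to 0.0529 in the other 12. Values without these 3 libraries are given beside the results in which they were the highest or lowest of their groups, a choice made after seeing the data, and their part in the results was otherwise not tested. RNA of a bulk culture cannot tell a change in the number of cells that express a gene from a change per cell.

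After BEV stimulation, the transcripts of the survival genes BCL2A1 and BIRC3 went from below 1 CPM to between 26.9 and 65.3 CPM, CFLAR rose 2.45- to 3.02-fold and MCL1 rose 1.68- to 1.87-fold. BCL2 fell to 0.308 to 0.360 of its NC level. XIAP and BCL2L1 rose by smaller factors in all 4 groups. Of the members that promote apoptosis, PMAIP1 passed the test as higher in EUC and SUC and BCL2L11 as lower in EUC, EPL and SPL. Both had the same direction in the other groups. The PMAIP1 calls and the SPL call of BCL2L11 were lost in fits that left out 1 library. BAX passed the test in no group. With edgeR's quasi-likelihood test and an adjusted p of at most 0.01, 7 of the 10 genes rose and 2 fell in EUC, against 16.5% and 14.0% of all tested genes. In EPL 6 rose and 2 fell (all genes 16.0% and 13.2%), in SUC 7 rose and 1 fell (12.4% and 9.15%), and in SPL 6 rose and 2 fell (13.3% and 10.6%). Over the 10 genes, the median log2 fold change in EUC, EPL, SUC and SPL was 0.63, 0.55, 0.55 and 0.44, beside a median of all tested genes between -0.0065 and 0.0067. Differentially expressed genes (DEGs), which passed the test with a log2 fold change no smaller than 1 in size, were BCL2A1, BIRC3 and CFLAR on the higher side and BCL2 on the lower side in each of the 4 groups. These 3 higher members stood beside 9.43%, 9.38%, 6.82% and 7.76% of all tested genes in the order EUC, EPL, SUC and SPL, and the 1 lower member beside 5.75%, 5.15%, 3.06% and 3.70%. The 4 comparisons share the 3 NC libraries. The 10 genes were chosen with earlier results of these data known, so their contrast with all tested genes was partly set by that choice.

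**Figure D1:**
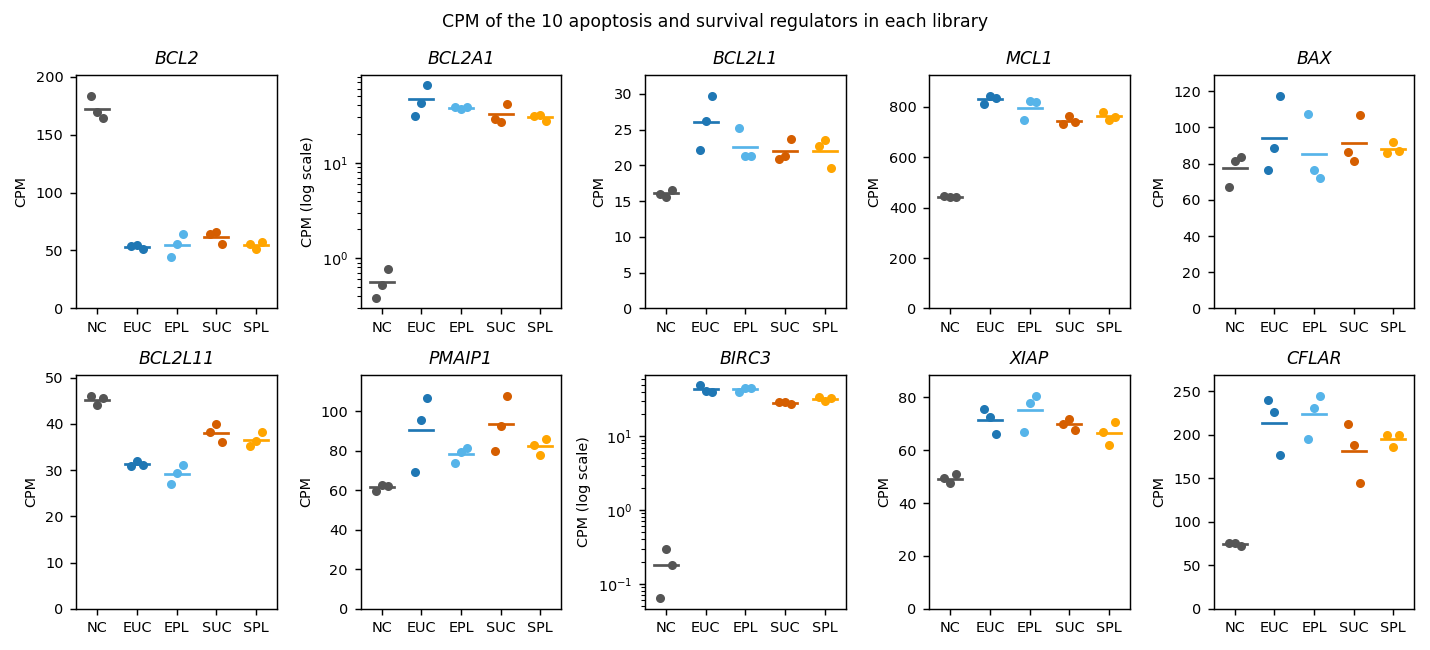
CPM of each of the 10 genes in each of the 15 libraries, with the mean of the 3 libraries of a group as a bar; BCL2A1 and BIRC3 are on a log scale and the other panels start at 0. NC lies above every stimulated library for BCL2 and BCL2L11 and below every one for BCL2A1, BIRC3, CFLAR, MCL1, XIAP, BCL2L1 and PMAIP1, while the groups overlap for BAX except in SPL.

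BCL2, the founding anti-apoptotic gene of the family (chromosome 18, 63123346 to 63320128, minus strand, hg38), was the only one of the 10 that was a DEG in the lower direction. The NC libraries held 183, 169.8 and 164 CPM. The libraries held 54.0, 54.5 and 50.9 CPM in EUC, 44.6, 55.8 and 63.9 in EPL, 64.6, 66.2 and 55.3 in SUC, and 55.3, 50.9 and 57.2 in SPL. Every stimulated library was thus far below every NC library, with the widest spread in EPL, and EUC3, EPL1 and SUC3 were the lowest of their groups. The log2 fold change was -1.70 (SE 0.11, adjusted p = 1.62e-09, edgeR) in EUC, -1.65 (SE 0.11, adjusted p = 2.34e-09) in EPL, -1.47 (SE 0.11, adjusted p = 1.49e-08) in SUC and -1.66 (SE 0.11, adjusted p = 2.90e-09) in SPL. Between 248 and 370 of the 17198 tested genes ranked as low or lower by fold change in the 4 comparisons. Without EUC3, EPL1 and SUC3, the log2 fold change was -1.67 in EUC, -1.52 in EPL and -1.39 in SUC.

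BCL2A1, a small anti-apoptotic protein of activated myeloid cells (chromosome 15, 79960892 to 79971196, minus strand), went the opposite way. NC held only 0.384, 0.529 and 0.775 CPM, from 6, 9 and 13 reads, a total of 28 with an exact 95% Poisson interval of 18.6 to 40.5 that covers counting error only. The libraries held 30.8, 42.5 and 65.3 CPM in EUC, 38.6, 36.7 and 38.2 in EPL, 28.7, 26.9 and 41.0 in SUC, and 31.2, 31.5 and 27.2 in SPL. No stimulated library came near NC, and the highest values of EUC and SUC were in EUC3 and SUC3. The fitted rise was 80.4-fold in EUC (95% interval 49.7 to 130, adjusted p = 5.98e-11, edgeR), 65.9-fold in EPL (40.6 to 107), 56.1-fold in SUC (34.4 to 91.3) and 52.2-fold in SPL (32.0 to 85.2). Without EUC3, EPL1 and SUC3, the log2 fold change was 5.99 in EUC, 6.03 in EPL and 5.60 in SUC, where all libraries gave 6.33, 6.04 and 5.81. The gene ranked between place 76 and place 121 from the top of the 17198 tested genes.

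MCL1, an anti-apoptotic protein with rapid turnover (chromosome 1, 150560895 to 150579738, minus strand), was the most abundant of the 10 per length in every group. NC held 445, 441 and 443 CPM, a spread much narrower than any change. EUC held 811, 843 and 834 CPM, EPL 747, 823 and 817, SUC 730.4, 761 and 739, and SPL 779, 748 and 759.9. All 12 stimulated libraries were above NC. MCL1 had a log2 fold change of 0.91 (SE 0.07, adjusted p = 5.34e-09, edgeR) in EUC, 0.85 in EPL (adjusted p = 1.37e-08), 0.75 in SUC (adjusted p = 9.92e-08) and 0.78 in SPL (adjusted p = 4.74e-08), below the size of a DEG in all 4. It was 0.89 in EPL without EPL1 and the other 2 libraries that stand apart. MCL1 shares 43 exon bases with ADAMTSL4 on the opposite strand, whose mean was 69.0 CPM in NC and 31.5 to 39.0 in the stimulated groups.

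BCL2L1, the gene of BCL-XL and BCL-XS (chromosome 20, 31664452 to 31723989, minus strand), rose less. NC held 16.1, 15.6 and 16.6 CPM, and the stimulated libraries ranged from 21.3 to 29.7 CPM in EUC and EPL, 20.9 to 23.7 in SUC and 19.6 to 23.5 in SPL. The ranges did not overlap NC, and EUC3, EPL1 and SUC3 were the highest of their groups. Its log2 fold change was 0.69 in EUC (SE 0.12, adjusted p = 0.000123, edgeR), 0.49 in EPL (adjusted p = 0.00284), 0.45 in SUC (adjusted p = 0.0073) and 0.45 in SPL (adjusted p = 0.0065). Without those 3 libraries it was 0.59, 0.41 and 0.40 in EUC, EPL and SUC and passed in each. The calls other than EUC were close to the threshold. In SUC the call was lost with any 1 of the 6 libraries left out, at an adjusted p of 0.0118 to 0.0354, in SPL with any but SPL3, at 0.0178 to 0.0353, and in EPL without NC1 (0.0117), NC2 (0.0151) or EPL1 (0.0164). ABALON, a long non-coding RNA on the opposite strand, shares 41.3% of the exon length of BCL2L1, and its mean was at most 0.0208 CPM in every group. The sources used here do not state the strand setting, so this level cannot show whether shared exons affected the BCL2L1 counts.

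Because these 4 anti-apoptotic genes do related work, their levels were set side by side per kilobase of exon. In NC, MCL1 made up 79.2%, 80.0% and 80.1% of their summed CPM per kilobase, BCL2 made up 14.6% to 16.1% and BCL2A1 0.428% to 0.876%. In the 12 stimulated libraries, BCL2A1 made up 16.9% to 31.1%, BCL2 1.91% to 3.28%, BCL2L1 2.82% to 3.57% and MCL1 63.6% to 77.0%. On this scale BCL2A1 thus took the second place that BCL2 had in NC in every stimulated library. The place rests on the length of all annotated exons, 995 bases for BCL2A1 and 12612 for BCL2. By mean CPM, BCL2A1 stayed below BCL2, at 46.2 against 53.1 in EUC, 37.8 against 54.7 in EPL, 32.2 against 62.0 in SUC and 30.0 against 54.4 in SPL. The summed level was 88.5 to 90.2 CPM per kilobase in NC and 156 to 211 in the stimulated libraries. The share of BCL2A1 was highest in EUC3 (31.1%), SUC3 (24.2%) and EPL1 (23.0%), and without these 3 libraries the highest was 22.6%. These shares are of transcripts and were described without a test.

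**Figure D2:**
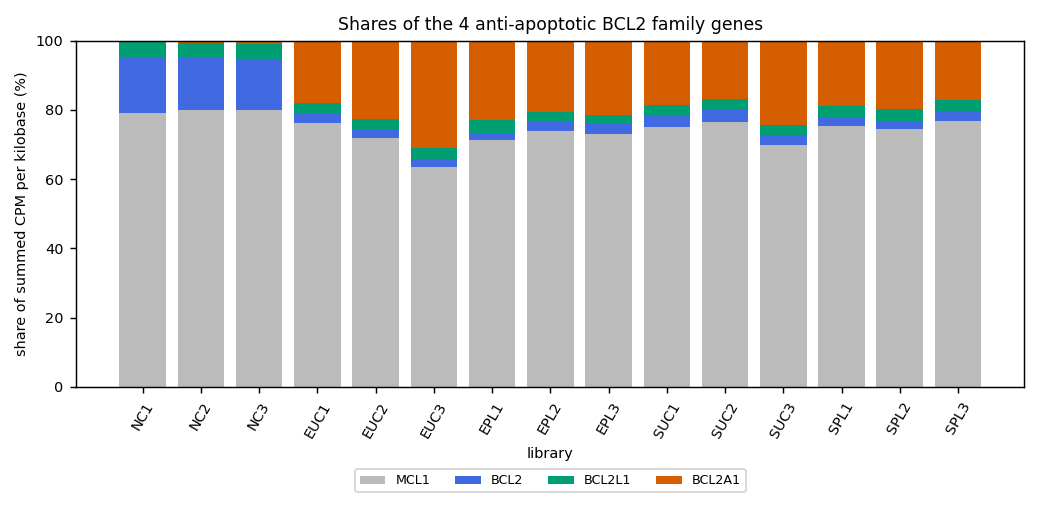
Share of MCL1, BCL2, BCL2L1 and BCL2A1 in their summed CPM per kilobase of exon (y axis, percent) in each of the 15 libraries (x axis), as stacked bars that add to the whole. BCL2 is the second largest block in the 3 NC libraries (14.6% to 16.1%) and BCL2A1 in the 12 stimulated libraries (16.9% to 31.1%).

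Of BAX, BCL2L11 and PMAIP1, the members of the 10 that promote apoptosis, none was a DEG. BAX, the pore former (chromosome 19, 48954815 to 48961798, plus strand), held 67.3, 81.4 and 83.5 CPM in NC, 76.2, 88.8 and 117 in EUC, 107, 76.5 and 72.1 in EPL, 86.3, 81.2 and 107 in SUC, and 86.0, 91.6 and 87.0 in SPL. Only SPL did not overlap NC, and the highest value of EUC, EPL and SUC was in EUC3, EPL1 and SUC3 in turn. Fitted log2 fold changes were 0.28 in EUC (95% interval -0.06 to 0.62), 0.14 in EPL (-0.20 to 0.48), 0.24 in SUC (-0.10 to 0.58) and 0.19 in SPL (-0.15 to 0.53), with adjusted p values from 0.182 to 0.541 (edgeR). Without the 3 libraries that stand apart these were 0.089, -0.057, 0.12 and 0.19, and none passed the test.

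BCL2L11, the gene of the BH3-only protein BIM (chromosome 2, 111119378 to 111168444, plus strand), passed the test as lower in EUC, EPL and SPL. NC held 46.0, 44.2 and 45.5 CPM, EUC 31.0, 32.0 and 31.0, and EPL 27.0, 29.3 and 31.1. SUC held 38.3, 39.9 and 36.0 CPM and SPL 35.1, 36.3 and 38.2. The *E. coli* libraries were lowest and the *S. aureus* libraries lay between them and NC, with no overlap among these 3 sets. The log2 fold change was -0.53 in EUC (SE 0.08, adjusted p = 3.77e-05, edgeR), -0.63 in EPL (SE 0.08, adjusted p = 5.75e-06) and -0.31 in SPL (SE 0.08, adjusted p = 0.00576), while in SUC it was -0.25 and did not pass (adjusted p = 0.0236). The call in SPL was lost with any 1 of the 6 libraries left out (adjusted p 0.0127 to 0.042). EPL1 and SUC3 were the lowest of their groups, and without the 3 libraries that stand apart the values were -0.53, -0.58, -0.20 and -0.30 in EUC, EPL, SUC and SPL, with the same 3 groups past the test. MIR4435-2HG, a non-coding gene on the opposite strand, shares 10.8% of the exon length of BCL2L11 and had means of 21.0 CPM in NC and 23.9 to 28.7 in the stimulated groups. No source used here states whether counting used the strand, so reads of these genes cannot be told apart there.

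PMAIP1, the gene of the BH3-only protein NOXA, which binds MCL1 (chromosome 18, 59899996 to 59904305, plus strand), passed the test in EUC and SUC. NC held 59.8, 62.4 and 62.1 CPM, EUC 69.3, 95.6 and 107, EPL 73.8, 79.1 and 81.5, SUC 79.9, 92.3 and 108, and SPL 83.0, 77.9 and 86.0. All 12 stimulated libraries exceeded NC, and EUC3 and SUC3 were the highest of their groups. The log2 fold change was 0.56 in EUC (SE 0.13, adjusted p = 0.00224, edgeR) and 0.60 in SUC (SE 0.13, adjusted p = 0.00167). It was 0.35 in EPL (adjusted p = 0.0429) and 0.42 in SPL (adjusted p = 0.0183), which did not pass. The call in EUC was lost without NC1 (adjusted p = 0.0119), EUC2 (0.0131) or EUC3 (0.0125), and that in SUC without SUC3 (0.0109). With EUC3, EPL1 and SUC3 all left out, PMAIP1 passed in the 4 groups, at log2 fold changes of 0.42, 0.39, 0.50 and 0.43 in EUC, EPL, SUC and SPL.

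**Figure D3:**
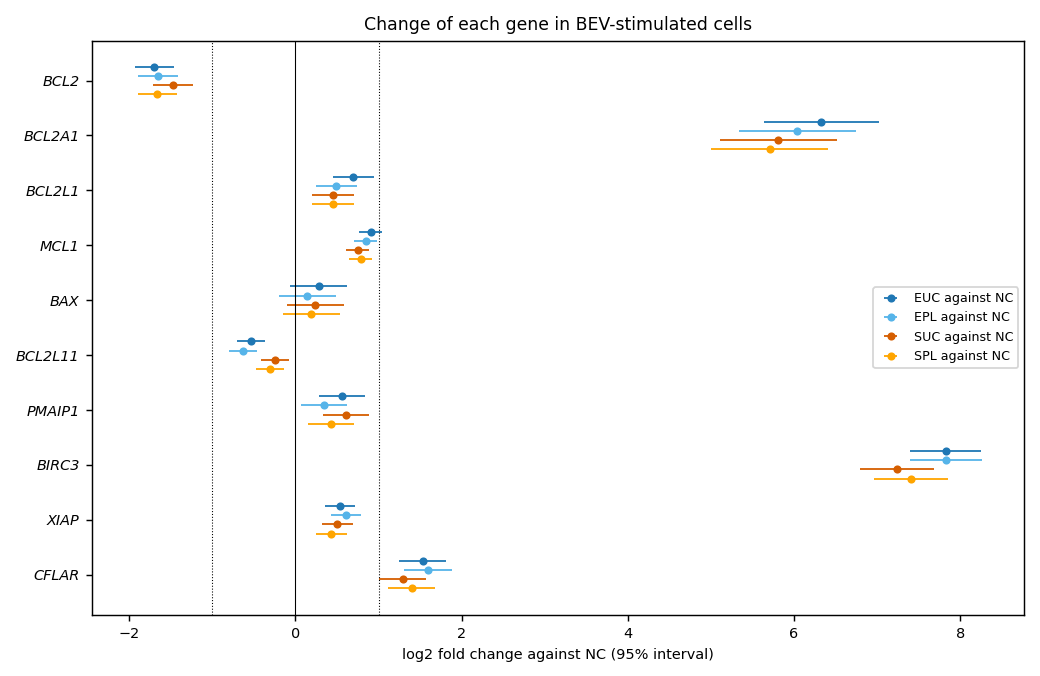
Log2 fold change against NC (x axis) of the 10 genes (y axis) in EUC, EPL, SUC and SPL. The 95% intervals were derived from the edgeR test, and dotted lines mark a log2 fold change of 1 in size. BCL2A1 and BIRC3 lie at 5.71 to 7.83, CFLAR at 1.29 to 1.59 and BCL2 at -1.70 to -1.47, and the other 6 genes lie within the dotted lines.

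Downstream of mitochondria and at the receptors, BIRC3 changed most. BIRC3 encodes cIAP2 (chromosome 11, 102317484 to 102339403, plus strand). NC held 1, 5 and 3 reads, or 0.064, 0.294 and 0.179 CPM, and the total of 9 reads has an exact 95% Poisson interval of 4.12 to 17.1. EUC held 48.7, 40.8 and 39.6 CPM, EPL 40.1, 44.8 and 44.8, SUC 29.3, 29.0 and 27.5, and SPL 33.9, 30.1 and 32.7. Each *E. coli* library was above each *S. aureus* library, all were far above NC, and EUC3, EPL1 and SUC3 were the lowest of their groups. The fitted rise was 226-fold in EUC (95% interval 168 to 306, adjusted p = 1.09e-14, edgeR), 228-fold in EPL (169 to 307), 151-fold in SUC (111 to 205) and 169.7-fold in SPL (125 to 230.3). The size of the fold rests on those 9 reads, whose counting error the intervals of the fold may not fully hold. Without EUC3, EPL1 and SUC3, the log2 fold change was 7.88 in EUC, 7.88 in EPL and 7.27 in SUC, where all libraries gave 7.82, 7.83 and 7.23. Leaving out each library in turn moved the log2 fold change between 7.46 and 8.36 in EUC. The highest, without NC2, lay above 8.26, the upper end of the 95% interval from all libraries. BIRC3 ranked between place 31 and place 44 from the top of the 17198 tested genes.

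XIAP, the direct caspase inhibitor (chromosome X, 123859712 to 123913972, plus strand), rose modestly. NC held 49.4, 47.5 and 51.0 CPM, EUC 75.6, 72.7 and 66.0, EPL 66.7, 78.1 and 80.5, SUC 69.9, 72.0 and 67.7, and SPL 66.8, 62.0 and 70.8. None of the stimulated libraries overlapped NC, and EUC3, EPL1 and SUC3 were the lowest of their groups. XIAP had a log2 fold change of 0.54 in EUC (SE 0.09, adjusted p = 9.09e-05, edgeR), 0.61 in EPL (adjusted p = 2.52e-05), 0.50 in SUC (adjusted p = 0.000245) and 0.43 in SPL (adjusted p = 0.000887). Without those 3 libraries it was 0.59, 0.69 and 0.53 in EUC, EPL and SUC.

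CFLAR, the gene of cFLIP (chromosome 2, 201116154 to 201176687, plus strand), rose in all 4 groups. NC held 75.2, 75.3 and 72.1 CPM, EUC 241, 226 and 176, EPL 195, 231 and 245, SUC 213, 189 and 144, and SPL 200.1, 186 and 200.1. The stimulated libraries were all above NC, and the lowest of EUC, EPL and SUC were EUC3, EPL1 and SUC3. The log2 fold change was 1.53 in EUC (SE 0.13, adjusted p = 6.78e-08, edgeR), 1.59 in EPL (SE 0.13, adjusted p = 4.32e-08), 1.29 in SUC (SE 0.13, adjusted p = 8.37e-07) and 1.40 in SPL (SE 0.13, adjusted p = 2.76e-07). Without those 3 libraries it was 1.65, 1.69, 1.44 and 1.40. CFLAR-AS1, on the opposite strand over 3.46% of the exon length of CFLAR, had means of 0.620 CPM in NC and 1.86 to 3.46 in the stimulated groups. The calls of BCL2, BCL2A1, MCL1, BIRC3, XIAP and CFLAR in the 4 comparisons with NC were kept with each library left out in turn.

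Because the 4 DEGs included known NF-kappa B targets, the sequence just upstream of their start sites is shown, from RefSeq on GRCh38.p14 (the last base is position -1). Matches to the NF-kappa B motif are in capitals. The windows are BIRC3 at chr11:102317234-102317483 (plus strand), BCL2A1 at chr15:79971197-79971446 (minus strand), the first of the CFLAR windows at chr2:201118466-201118715 (plus strand) and BCL2 at chr18:63319770-63320019 (minus strand).
BIRC3: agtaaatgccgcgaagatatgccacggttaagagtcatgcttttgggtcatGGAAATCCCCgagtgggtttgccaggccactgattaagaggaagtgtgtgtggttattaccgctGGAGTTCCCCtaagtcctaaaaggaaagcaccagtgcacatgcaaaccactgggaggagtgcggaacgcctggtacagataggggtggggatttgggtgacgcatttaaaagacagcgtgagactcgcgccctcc
CFLAR: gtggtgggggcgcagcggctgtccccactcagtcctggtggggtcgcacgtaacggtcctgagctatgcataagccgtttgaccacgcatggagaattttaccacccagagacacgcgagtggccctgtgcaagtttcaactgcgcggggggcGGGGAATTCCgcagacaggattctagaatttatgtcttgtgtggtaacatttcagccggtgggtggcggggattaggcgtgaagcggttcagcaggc
BCL2A1: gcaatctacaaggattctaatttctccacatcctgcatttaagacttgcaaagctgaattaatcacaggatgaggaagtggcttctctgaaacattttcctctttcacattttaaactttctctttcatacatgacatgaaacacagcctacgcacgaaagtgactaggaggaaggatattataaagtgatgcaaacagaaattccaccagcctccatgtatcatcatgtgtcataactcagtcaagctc
BCL2: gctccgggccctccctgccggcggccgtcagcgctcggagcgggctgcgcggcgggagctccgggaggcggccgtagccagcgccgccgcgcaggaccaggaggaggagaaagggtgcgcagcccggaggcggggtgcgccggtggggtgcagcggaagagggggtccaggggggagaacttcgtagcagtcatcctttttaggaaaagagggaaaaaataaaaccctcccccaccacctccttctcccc
The RefSeq table held 15 windows of 9 of the 10 genes, with no entry used for MCL1. Searched on both strands in these 250 bases, the NF-kappa B motif was in 2 of the 15 windows, with GGAAATCCCC at positions -199 to -190 and GGAGTTCCCC at -135 to -126 of BIRC3 and GGGGAATTCC at -97 to -88 of CFLAR. It was in 9.96% of 35116 upstream windows in the table. The AP-1 motif TGANTCA was in 1 of the 15 windows, as TGAATCA at -160 to -154 of another CFLAR window, and in 6.57% of all windows, and it overlapped no NF-kappa B match in the 10 genes. A match describes letters in a window and not a site in use.

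The order of the 10 genes per kilobase of exon differed between NC and the stimulated groups. In NC the order by mean CPM per kilobase was MCL1 (71.2), BAX (29.9), PMAIP1 (28.1), BCL2 (13.7), BCL2L11 (6.71), XIAP (5.18), BCL2L1 (3.83), CFLAR (3.30), BCL2A1 (0.566) and BIRC3 (0.0239), and of the neighbours only BAX and PMAIP1 overlapped. In EUC it was MCL1 (133), BCL2A1 (46.4), PMAIP1 (41.4), BAX (36.4), CFLAR (9.53), XIAP (7.50), BCL2L1 (6.20), BIRC3 (5.75), BCL2L11 (4.65) and BCL2 (4.21). There BCL2A1, PMAIP1 and BAX overlapped as neighbours, as did CFLAR, XIAP, BCL2L1 and BIRC3. BCL2 stood last in EUC, ninth in EPL with a range that overlapped the last, BCL2L11, and ninth in SUC and SPL, with BIRC3 last (3.82 and 4.31 CPM per kilobase). The SPL ranges of BCL2 and BIRC3 overlapped. The length is that of all annotated exons, so a gene with many transcript ends, such as CFLAR with 22478 bases, has a low value per kilobase.

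The question of the study was whether vesicles isolated by PL act on host cells like those isolated by UC. None of the 10 genes passed the test between EPL and EUC by edgeR (smallest adjusted p = 0.947; 0% of all tested genes) or between SPL and SUC (smallest adjusted p = 0.86; 0.00581% of all tested genes). DESeq2 called 0 of them in both comparisons too, and none of the 10 had an unadjusted p under 0.05, which 604 and 1000 of the 17198 genes had. The intervals show what differences the data leave possible. Between EPL and EUC the 95% intervals of the 10 genes lay within -0.72 and 0.34 on the log2 scale, and between SPL and SUC within -0.54 and 0.40. The widest were those of BCL2A1, at -0.29 (-0.72 to 0.14) and -0.10 (-0.54 to 0.34), and among the narrowest were those of MCL1, at -0.06 (-0.20 to 0.08) and 0.04 (-0.10 to 0.17). Without EUC3, EPL1 and SUC3 the BCL2A1 differences changed sign, to 0.04 between EPL and EUC and 0.11 between SPL and SUC, and those of BAX (0.07) and CFLAR (-0.04) changed sign between SPL and SUC, with none of the 10 genes past the test. The PL minus UC difference was also not called different between the species for any of the 10 (0% of all tested genes by edgeR, 0 of the 10 genes by DESeq2 and 0 with an unadjusted p under 0.05, beside 659 of all), with intervals within -0.80 and 0.57.

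Between *E. coli* and *S. aureus* BEVs, 2 of the 10 genes passed the test, beside 3.87% of all tested genes. BIRC3 was higher with *E. coli* BEVs, at 43.0 ± 4.9 CPM in EUC and 43.2 ± 2.7 in EPL against 28.6 ± 0.95 in SUC and 32.2 ± 2.0 in SPL (SD, n = 3). The difference was 0.51 on the log2 scale (SE 0.08, 95% interval 0.34 to 0.67, adjusted p = 0.000356, edgeR). BCL2L11 was lower with *E. coli* BEVs, at 31.3 ± 0.57 and 29.1 ± 2.0 CPM against 38.1 ± 2.0 and 36.5 ± 1.5, a difference of -0.30 (SE 0.06, 95% interval -0.42 to -0.18, adjusted p = 0.00249). Without SUC2 the adjusted p of BCL2L11 was 0.0104, which leaves BIRC3 as the only call. BCL2A1 (0.43, 95% interval 0.12 to 0.74, adjusted p = 0.102), CFLAR (0.22, 0.02 to 0.41, adjusted p = 0.232) and MCL1 (0.11, 0.01 to 0.21, adjusted p = 0.216) did not pass. Without EUC3, EPL1 and SUC3, 4 of the 10 passed, BIRC3 at 0.54, BCL2L11 at -0.30, BCL2A1 at 0.36 (adjusted p = 0.0032) and CFLAR at 0.25 (adjusted p = 0.000595). The share of all tested genes called in that fit is not given here. Among the further apoptosis genes described below, 16 passed in that fit and 7 with all libraries, so the gain was not confined to the 10 genes. *E. coli* BEVs were given at 1 μg/mL and *S. aureus* BEVs at 10 μg/mL.

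**Figure D4:**
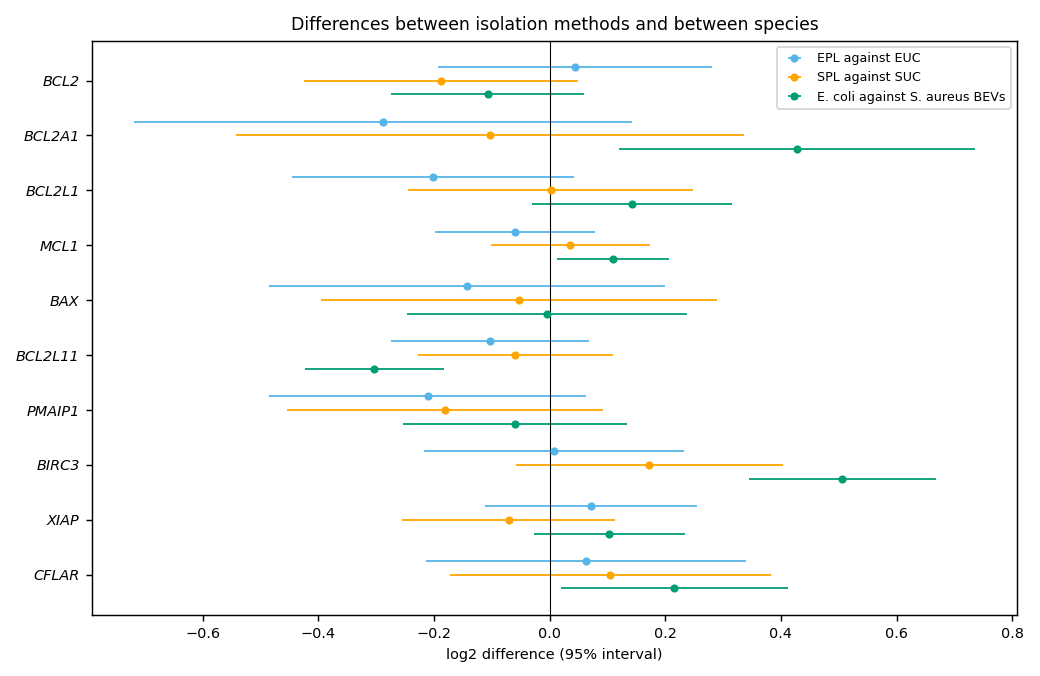
Log2 difference (x axis) between PL and UC within each species and between the species for the 10 genes (y axis). The 95% intervals were derived from the edgeR test. Every interval between isolation methods includes 0, and the 2 genes that passed between the species are BIRC3 (0.51) and BCL2L11 (-0.30).

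The 10 genes act beside many others, so 88 further genes of 7 lists (other BCL2 family members, other inhibitor of apoptosis proteins and their antagonists, caspases and apoptosome, death receptor signalling, NF-kappa B survival targets and upstream regulators, with 1 more list not reported on its own) were counted in the same fit. Of the 80 that were tested, 33 rose and 8 fell in EUC, 32 and 7 in EPL, 26 and 5 in SUC, and 27 and 7 in SPL. These counts, and those of each list below, are to be read against the shares of all tested genes. These rose and fell at 16.5% and 14.0% in EUC, 16.0% and 13.2% in EPL, 12.4% and 9.15% in SUC, and 13.3% and 10.6% in SPL. Their median log2 fold change was between 0.26 and 0.36. The lists were also chosen with earlier results of these data known. BCL2L10, BCL2L14, HRK, BIRC7, BIRC8, CASP14, FASLG and TNFRSF10C were too low to test.

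Among 13 other BCL2 family genes, 4 rose and 1 fell in each group. BMF, a BH3-only gene, rose from 6.41 ± 0.70 CPM in NC to between 42.8 and 45.1 (log2 fold change 2.74 to 2.81), and BID, whose protein links caspase 8 to mitochondria, from 85.1 ± 4.7 to between 259.8 and 337 (1.61 to 1.99). BNIP3L, a receptor for removal of mitochondria, rose by 0.78 to 1.06. BIK, a BH3-only gene, was the 1 that fell, from 39.6 ± 4.3 CPM to between 11.4 and 15.1 (-1.79 to -1.39). The largest changes in this list were thus of BH3-only genes, in both directions.

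Of 7 other inhibitors of apoptosis and antagonists, 2 rose in each group and none fell. XAF1, an antagonist of XIAP, rose from 10.7 ± 1.0 CPM to between 47.0 and 68.0 (log2 fold change 2.13 to 2.67), and BIRC2, the neighbour and paralog of BIRC3, by 0.49 to 0.65. Of 14 caspase and apoptosome genes, 7 rose and 2 fell in EUC and in EPL, 4 and 1 in SUC, and 4 and 2 in SPL. The inflammatory caspases CASP1 and CASP4 rose by 0.96 to 1.29 and 0.84 to 1.06 on the log2 scale. APAF1, the scaffold of the apoptosome, fell by 0.52 to 0.66 on the log2 scale.

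Of 11 death receptor genes, 6 rose and 1 fell in EUC, 6 and 2 in EPL, 4 and 1 in SUC, and 5 and 2 in SPL. TNFSF10, the gene of the ligand TRAIL, rose by 0.92 to 1.60 on the log2 scale, its receptor TNFRSF10B by 0.91 to 1.13 and the decoy receptor TNFRSF10D by 0.55 to 1.03. MLKL, the effector of necroptosis, fell by 0.53 to 0.86. Of 9 NF-kappa B survival targets, 7 rose in EUC and 6 in each other group, and none fell. SOD2, the mitochondrial superoxide dismutase, rose from 79.1 ± 2.8 CPM to between 3327 and 5858 (log2 fold change 5.39 to 6.21), TNFAIP3, which restrains NF-kappa B signalling, by 5.07 to 5.29, and IER3, an early response gene, by 4.53 to 5.15 from 0.285 ± 0.21 CPM.

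Of 11 upstream regulators, 3 rose in EUC and EPL and 2 in SUC and SPL, and 1 fell in each group. In a list of this size, these counts are near the shares of all tested genes and are no result about the list. ATF3, a stress-induced transcription factor, rose by 3.49 to 4.47 on the log2 scale, and MYC, a driver of growth, fell by 0.88 to 1.03. Each gene named from the lists passed the test in all 4 comparisons (edgeR, adjusted p between 1.22e-15 and 0.00234).

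**Figure D5:**
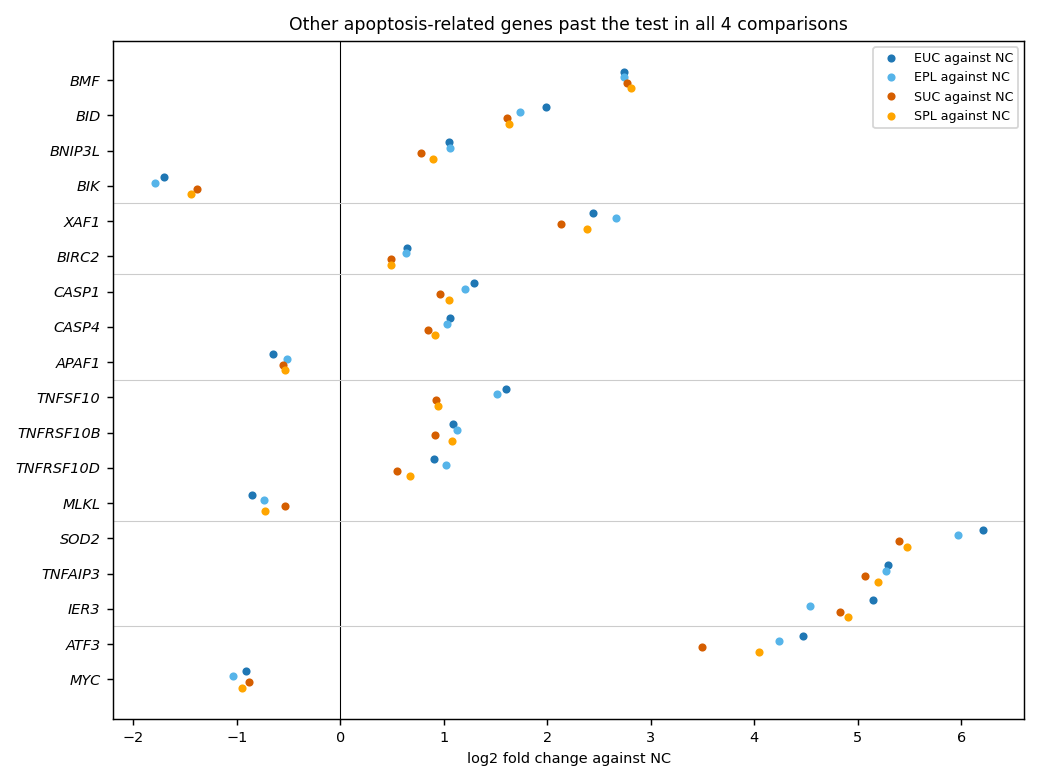
Log2 fold change against NC (x axis) of the genes named from the lists (y axis), one point for each of EUC, EPL, SUC and SPL, with grey lines between the lists. SOD2, TNFAIP3, IER3 and ATF3 lie farthest to the right (3.49 to 6.21) and BIK farthest to the left (-1.79 to -1.39).

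Genes that moved most like the 4 DEGs were found among 12276 tested protein-coding genes by the Euclidean distance between their 4 log2 fold changes against NC. For BIRC3 these were the chemokine CXCL8 (distance 0.236), ACOD1 (0.535), which makes itaconate, and MACC1 (0.616). CRIM1 (0.331), UPB1 (0.427) and SOD2 (0.496) were nearest to BCL2A1. SLC39A8 (0.074), TOR1B (0.0787) and FKBP5 (0.0907) were nearest to CFLAR, and RNF207 (0.16), SLC9A3R2 (0.165) and LILRA2 (0.168) to BCL2. A distance over 4 values that share the NC libraries describes likeness of change only.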

How the data were processed

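RNA of 15 THP-1 libraries was extracted with Trizol, made into libraries with a NEB Next Ultra kit and sequenced from both ends. The authors checked the reads with FastQC 0.11.5, aligned them to hg38 with HISAT2 2.1.0 and deposited whole-number read counts per Ensembl gene, without normalization. The submitters' processing notes also name StringTie 1.3.3b, DESeq 1.28.0 and featureCounts, with no roles. For the strand setting and the annotation release, the sources used here give nothing. Libraries were grouped by their labels, and 0 columns of values and 0 rows without a gene name were left out. Total counts had a median of 15831655.

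The deposited counts entered edgeR 4.0.16 under R 4.3.3 (filterByExpr, TMM, glmQLFit and glmQLFTest, all 15 libraries in 1 fit, 10 residual degrees of freedom, common biological coefficient of variation 0.118). Benjamini-Hochberg adjustment ran over the p-values of 17198 genes. The thresholds, an adjusted p of at most 0.01 and, for DEGs, a log2 fold change no smaller than 1 in size, are those of the study, which used DESeq2 (version 1.42.0 here, as an alternative). CPM are counts scaled to the TMM-normalized library size. Intervals cover 95%. Loci and exon lengths come from GENCODE release 44, in which 17174 tested genes had a length. The short gene measure compares median deviations from the group mean of genes with exons up to 3149 bases and from 6302 bases, and libraries over 0.1 were left out together as an alternative. Other alternatives were DESeq2's size factors in edgeR, other filters on low counts, a replicate block, fits of the compared groups only and leaving out each library. The scripts were tested on simulated counts.

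The 10 genes and the lists were chosen with earlier results of these data known. Some genes and 1 of the 7 lists are not reported here. From each other list, the text names up to 3 genes in each direction with the largest mean change among those past the test in all 4 comparisons in 1 direction, with a mean CPM of at least 1. For each gene that was a DEG in all 4 comparisons it names the 3 nearest tested protein-coding genes. Overlapping genes and marker genes are named where a result touches them, and the genes under the other observations were chosen after their values were seen.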

Additional observations from a re-analysis of the deposited data

Results flagged for a closer look

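Effects of the vesicles of the 2 species on 2 of the 10 genes differed by a test of the difference itself. It compared the mean of EUC and EPL with the mean of SUC and SPL (edgeR), and 3.87% of all tested genes passed it. BIRC3 was 0.5061 higher on the log2 scale with *E. coli* BEVs (adjusted p = 0.000356), and all 6 *E. coli* libraries were above all 6 *S. aureus* libraries. BCL2L11 was lower with *E. coli* BEVs, at -0.3031 (adjusted p = 0.00249), with all 6 *E. coli* libraries below all 6 *S. aureus* libraries. The BCL2L11 call was lost without SUC2 (adjusted p = 0.0104) and with no filter on low counts (0.0116), while that of BIRC3 was kept in both fits. Species and dose changed together and cannot be told apart.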

How the results depend on the processing

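Over the 4 comparisons of the 10 genes with NC and the 2 calls between the species, 520 values under the alternatives kept their direction and their side of the threshold, 30 kept their direction and lost the call, 6 gained it and 2 turned. Both of these turns were of BAX in EPL, which passed in no fit: -0.05683 without the libraries high in short genes, and -0.06006 to 0.2407 over the fits that left out 1 library (lowest without EPL1). The count of the 10 genes called between the species was 1 to 2 over those fits and 4 without the libraries high in short genes, which adds BCL2A1 and CFLAR. Differences between isolation methods, none of which passed, also changed sign without these libraries for BCL2A1 in both species. Those of BAX and CFLAR did so between SPL and SUC. Over the fits that left out 1 library, the difference between the species ran from -0.139 to 0.012 for PMAIP1 and from -0.112 to 0.060 for BAX. In those fits, sign changes between EPL and EUC were seen for BCL2, BCL2A1, BAX, BIRC3 and CFLAR. Between SPL and SUC they were seen for BCL2A1, BCL2L1, BAX and CFLAR. With the replicate block, 9, 8, 7 and 8 of the 10 genes passed against NC in EUC, EPL, SUC and SPL, where 9, 8, 8 and 8 passed without it. BCL2L1 lost its call in SUC (adjusted p = 0.0121) and SPL (0.0105), and PMAIP1 gained one in SPL (0.00615), with no other call changed. The correlations of deviations between libraries of the same number ran from -0.452 to 0.393, -0.0319 to 0.0965 and -0.341 to 0.525 for numbers 1, 2 and 3, so not every pair was positive, and the numbers were not taken as a pairing. As a hint from the data, 9 of 15 libraries correlated best with their own number. With no filter on low counts, BCL2L11 lost its calls in SPL (adjusted p = 0.0758) and between the species (0.0116), PMAIP1 gained one in SPL (0.00117), and BCL2A1 gained one between the species (0.42 on the log2 scale, adjusted p = 0.000171). In fits of the compared groups only, PMAIP1 lost its call in EUC (0.0132) and gained it in EPL (0.00332) and SPL (2.18e-07). The cause of these changes was not tested. DESeq2 and its size factors in edgeR kept each count of the 10 genes. Of the 80 further genes, 47, 52, 41 and 47 passed in EUC, EPL, SUC and SPL without the libraries high in short genes, against 41, 39, 31 and 34 with them. The share of all tested genes called without these libraries is not given here. Neither this rise nor that between the species can therefore be read as particular to these genes. Depth limits BIRC3 and BCL2A1 in NC, where 9 and 28 reads set the size of the fold.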

Other observations

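Values of further genes of the lists that the rule did not name follow (chosen after their values were seen, edgeR). TRAF1, a partner of BIRC3 and BIRC2 at tumor necrosis factor receptors, had log2 fold changes of 4.71, 4.59, 3.09 and 3.56 in EUC, EPL, SUC and SPL (adjusted p at most 4.69e-10), and RIPK1, the kinase at the same receptors, 0.64, 0.77, 0.53 and 0.60 (adjusted p at most 0.000644). NFKB1 had 2.81, 2.71, 2.42 and 2.54 and its inhibitor NFKBIA 3.35, 3.24, 3.17 and 3.13. The receptor adaptor FADD had -0.21, -0.54, -0.29 and -0.71 and passed in EPL and SPL, while TRAF2 and RIPK3 passed in no group. BBC3, the BH3-only gene of PUMA, had 0.76, 0.64, 0.60 and 0.58 (adjusted p at most 0.00453). BAK1, the pore former beside BAX, had -0.09, -0.11, -0.03 and -0.05 (adjusted p at least 0.32), and CASP9, the initiator caspase of the apoptosome, had -0.04, -0.10, -0.07 and -0.13 (adjusted p at least 0.571). ENDOG, a mitochondrial nuclease, had -0.81, -1.01, -0.70 and -1.11 and passed in EUC, EPL and SPL. CASP8 passed in EUC (0.48, adjusted p = 0.000246) and EPL (0.40, adjusted p = 0.00134), while in SUC (0.31, adjusted p = 0.0102) and SPL (0.29, adjusted p = 0.0155) it did not.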
